A study of Mus musculus with 6 samples.

Results

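T cells, natural killer (NK) cells and innate lymphoid cells of the colon were followed through 36 genes chosen by symbol: 17 that mark T cells in general, 6 of helper and regulatory T cells, and 13 of cytotoxic or innate lymphoid cells. All 36 were among the 25339 genes of the deposited table. RNA was sequenced from mouse colon in 3 libraries of animals given DMSO, the solvent, and 3 of animals given lenvatinib, a small-molecule drug that blocks several receptor tyrosine kinases, those of the VEGF family among them. The series title names colitis and B cell trafficking, which makes it a question whether lymphocytes other than B cells differed between the same libraries. The labels give no strain, age, dose or duration, leave unsaid whether either group had colitis, and call the libraries biological replicates without naming animals. Levels are FPKM, reads scaled to gene length and library size, so levels of different genes can be set side by side. Each FPKM rested on a library of 37996789 to 39623411 reads.

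A T cell recognises its target through the T cell receptor, whose signal is carried into the cell by the CD3 chains and CD247, the kinases LCK and ZAP70 and the adaptor LAT. Helper T cells carry CD4 and steer other immune cells, and the regulatory subset, marked by FOXP3, restrains them. Cytotoxic T cells and NK cells kill by releasing granzymes and perforin. In the gut many of these cells sit inside the epithelium, held there by the integrin chain encoded by Itgae, and many of those carry CD8 as a pair of α chains in place of an α and a β chain.

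Libraries 2 and 3 of each group stood close together. Over genes with at least 10 reads in every library, their median squared deviation was 2.78 times that of counting noise for the DMSO pair and 2.37 times for the lenvatinib pair, against 14.4 to 38.3 times for all other pairs of libraries. DMSO 1 was the only library with the Y-linked transcript Ddx3y (6.54 FPKM, listed at 0 elsewhere) and had almost no Xist (0.00147 FPKM against 15.9 to 19.8). By these transcripts DMSO 1 read as male and every other library as female, so the controls mixed sexes and the treated libraries did not. The part of sex in the values was not tested. The tissue label was borne out by Car1 and Aqp8 of colonocytes, at 7590 to 10400 and 301 to 699 FPKM over the 6 libraries. Fabp6, a gene of the ileum, measured 1.44 to 2.28 FPKM with DMSO and 148 to 161 FPKM with lenvatinib. For 6 of the 7 tested genes on the small intestinal list, Fabp6 included, every lenvatinib library was above every DMSO library, beside 10% of all genes tested. Defa24 measured at most 1.13 FPKM with DMSO and 94.8 to 139 FPKM with lenvatinib, and Lyz1 5.64 to 8.34 and 30.0 to 43.6 FPKM. Among genes of that list under the level for testing, Lct and Gata4 were below 0.1 FPKM in every library. Apoa4, also under that level, measured 0.0462 to 0.079 FPKM with DMSO and 0.569 to 0.894 FPKM with lenvatinib. T cells were present in all 6 libraries by their defining CD3 transcripts.

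Promoter sequence is shown for the 3 CD3 genes, whose levels moved together from library to library, and for Gzmb, a killing gene with a wide range. It is also shown for Ncr1, the only member higher in both lenvatinib 2 and 3 than in every other library, though at low read counts. The 250 bases before each start site come from RefSeq on GRCm38.p6, a build other than that of the counted reads, and 25 of the 36 genes had such a window. Capitals mark matches on either strand to 4 short motifs. The ETS factor motif searched was CAGGAA. For RUNX factors it was TGTGGT. For GATA factors the letters were AGATAA. For T-box factors, T-bet and Eomes among them, they were TCACAC. No marked matches overlapped.
Cd3g, chr9:44980432-44980681, minus strand: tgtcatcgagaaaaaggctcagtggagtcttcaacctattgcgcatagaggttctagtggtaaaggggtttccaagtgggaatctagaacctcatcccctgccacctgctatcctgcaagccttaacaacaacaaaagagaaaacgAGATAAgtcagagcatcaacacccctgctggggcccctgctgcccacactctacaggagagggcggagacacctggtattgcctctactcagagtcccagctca
Cd3d, chr9:44981536-44981785, plus strand: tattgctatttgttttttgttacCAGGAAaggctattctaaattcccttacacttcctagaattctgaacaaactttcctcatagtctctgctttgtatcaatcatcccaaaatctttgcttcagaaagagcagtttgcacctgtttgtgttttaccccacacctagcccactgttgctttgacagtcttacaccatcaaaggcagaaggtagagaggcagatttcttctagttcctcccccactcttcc
Cd3e, chr9:45009612-45009861, minus strand: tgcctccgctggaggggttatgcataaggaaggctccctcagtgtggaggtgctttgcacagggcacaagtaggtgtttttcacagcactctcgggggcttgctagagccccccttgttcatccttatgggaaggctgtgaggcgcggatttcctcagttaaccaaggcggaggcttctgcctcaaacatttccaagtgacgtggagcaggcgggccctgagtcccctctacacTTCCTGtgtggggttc
Gzmb, chr14:56262335-56262584, minus strand: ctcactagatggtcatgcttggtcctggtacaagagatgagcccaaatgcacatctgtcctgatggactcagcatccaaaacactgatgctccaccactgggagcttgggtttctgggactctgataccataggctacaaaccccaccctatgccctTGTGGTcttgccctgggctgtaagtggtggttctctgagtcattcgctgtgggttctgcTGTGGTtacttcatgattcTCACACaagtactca
Ncr1, chr7:4337465-4337714, plus strand: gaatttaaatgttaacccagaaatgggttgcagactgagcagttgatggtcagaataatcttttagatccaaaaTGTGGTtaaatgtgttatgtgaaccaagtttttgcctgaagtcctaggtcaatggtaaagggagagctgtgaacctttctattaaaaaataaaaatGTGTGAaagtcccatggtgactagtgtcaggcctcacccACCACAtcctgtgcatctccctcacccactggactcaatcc

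Cd3g and Cd3d lie back to back on opposite strands, with Cd3e nearby on the same chromosome. Of the motifs searched, Cd3d and Cd3e each held 1 ETS match and Cd3g held 1 GATA match. Gzmb and Ncr1 each held 2 RUNX matches and 1 T-box match, although their levels ran in opposite directions across the lenvatinib libraries. Among all 32851 windows of this length in the table, 25.7% held the ETS letters, 14.0% the RUNX letters, 9.99% the GATA letters and 12.3% the T-box letters. Of the 32 windows of members, 12, 10, 3 and 7 held them. A match is a description of letters, not a measured binding site.

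T cell transcripts did not separate the treated from the untreated libraries, because the lenvatinib libraries lay on both sides of the DMSO libraries. The summed level of the 36 genes was 137, 197 and 200 FPKM in DMSO 1 to 3, against 254, 47.8 and 50.7 FPKM in lenvatinib 1 to 3. Lenvatinib 1 was thus the highest of the 6 libraries and lenvatinib 2 and 3 the lowest, with a gap within the treated group wider than any between groups. In bulk tissue, fewer cells of a type and less RNA per cell cannot be told apart.

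**Figure D1:**
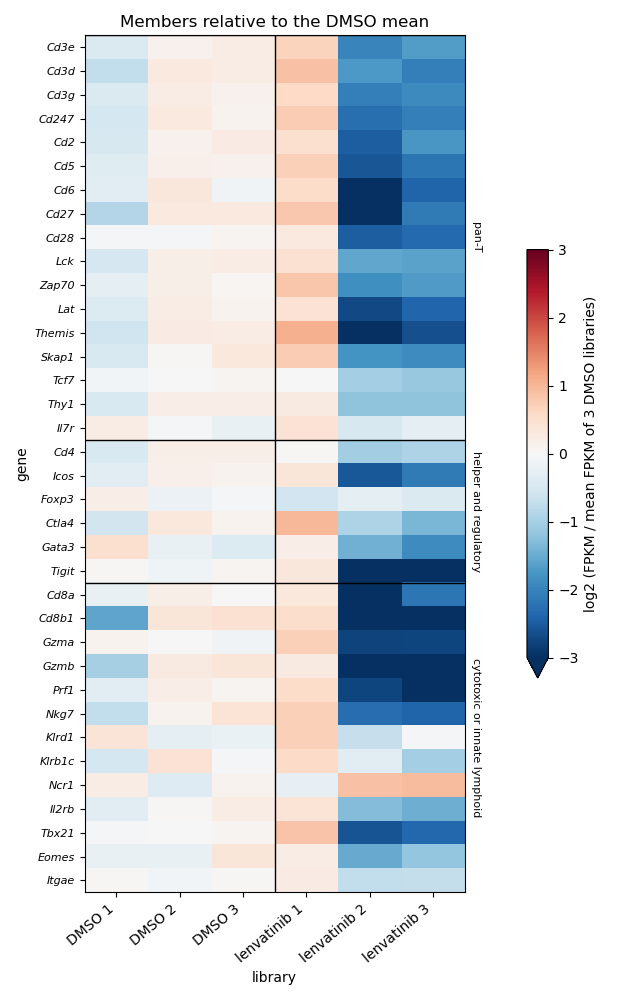
Each row is 1 of the 36 genes and each column 1 library; the colour is log2 of FPKM over the mean of the 3 DMSO libraries, with the scale ending at −3, so that the darkest cells may lie lower. Most rows are orange in lenvatinib 1 and blue in lenvatinib 2 and 3; Foxp3, Klrd1 and Ncr1 are exceptions.

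Expressed as a ratio to the DMSO mean, the median of the 36 genes was 0.786, 1.12 and 1.08 in DMSO 1 to 3, then 1.42, 0.248 and 0.267 in lenvatinib 1 to 3. Over all genes tested the same medians were 0.984, 1.01, 1.01, 1.00, 0.921 and 0.919. Lenvatinib 2 and 3 were both below the other 4 libraries for 32 of the 36 genes. Among the 27 genes that could be tested this order held for 26, against 41.4% of all genes tested. For 23 of the 27, lenvatinib 1 also exceeded every DMSO library, an order that 11.6% of all genes tested showed. Both orders were picked out after the levels had been seen, and they describe libraries, not the treatment.

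In the comparison of 3 with 3 libraries, 27 members reached the mean of 1 FPKM needed for testing and 9 did not. In limma with Benjamini-Hochberg adjustment, 0 of the 27 passed at 0.05, where 2.03% of all genes tested passed (239 of 11774, 129 higher and 110, or 0.934%, lower). At an unadjusted p below 0.05 the count was again 0, against 22% of all genes, and limma's voom on recovered reads gave 0 adjusted, where 1.96% of all genes passed, and 3 unadjusted. The adjusted p-values of members ranged from 0.251 to 0.952. None of the 27 had groups that did not overlap, against 27.5% of all genes. Their median log2 fold change, lenvatinib minus DMSO on log2(FPKM + 1), was −0.63, with 26 of 27 below 0, beside −0.07 over all genes tested. This scale understates the change of low genes.

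Lenvatinib 1 decided these calls. Without it, 25 of the 27 passed, all 25 lower, with a median log2 fold change of −1.16. Then 38% of all genes tested also passed, 28.2% lower, as the spread within the treated group shrank to that of the near-identical pair. Klrd1 and Il7r were the members that did not pass there. Weighting libraries by how far they strayed from their group gave the same 25 lower, where 64.4% of all genes tested passed and 45.3% passed lower. Without DMSO 1, 0 of 27 passed where 2.29% of all genes tested did, and the median was −0.77. With libraries 2 and 3 of each group averaged, so that each pair counted as 1 sample, 0 of 27 passed, where 0.0255% of all genes tested did, and the median was −0.30, beside −0.05 over all genes tested.

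**Figure D2:**
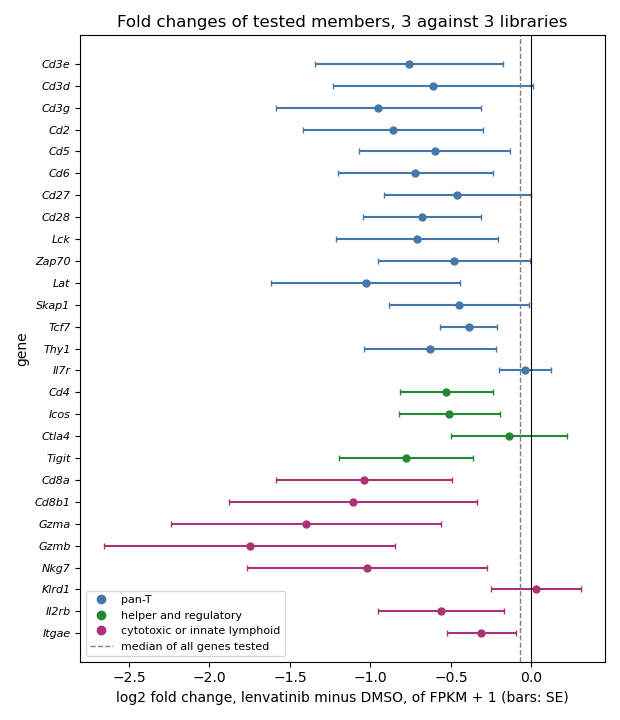
Points are log2 fold changes (lenvatinib minus DMSO, log2 of FPKM + 1) of the 27 tested genes with limma's standard error, coloured by class; the dashed line is the median of all genes tested, −0.07. The bars are longest for the killing genes Gzma and Gzmb, and shortest for Il7r and Tcf7. The added 1 shortens the bars of low genes such as these. With 0.1 added instead, the standard error of Il7r (0.258) was still the shortest, and that of Tcf7 was 0.295.

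The CD3 chains, which couple the receptor to its signalling, had this order of libraries in all 3 genes. Cd3e measured 6.23, 9.20 and 9.88 FPKM in DMSO 1 to 3, against 13.4, 2.14 and 2.64 FPKM in lenvatinib 1 to 3. Cd3g, the most abundant of the 3, measured 11.6, 18.3 and 17.0 FPKM, then 23.5, 3.80 and 4.14 FPKM. Cd3d measured 3.24, 6.69 and 6.38 FPKM, then 10.1, 1.66 and 1.31 FPKM. In each of them DMSO 1 was the lowest of the controls and lenvatinib 1 above all controls. The means were 8.44 ± 1.94 and 6.05 ± 6.35 FPKM for Cd3e (SD, n = 3 per group; log2 fold change −0.76, SE 0.582; limma adjusted p = 0.440), so the spread within the treated group exceeded the difference between groups. Cd247, the ζ chain of the receptor complex and under the filter, ran the same way, from 0.191 FPKM in lenvatinib 2 to 1.55 FPKM in lenvatinib 1. The ratio of Cd3e to Cd3g stayed between 0.503 and 0.637 in all 6 libraries while Cd3e itself varied from 2.14 to 13.4 FPKM.

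Downstream of the receptor, the kinase Lck measured 6.85, 11.0 and 11.5 FPKM in DMSO 1 to 3, against 13.5, 3.33 and 3.24 FPKM in lenvatinib 1 to 3. Zap70, the kinase that binds phosphorylated CD3 chains, measured 2.35, 3.22 and 2.96 FPKM, then 5.07, 0.797 and 0.873 FPKM. The adaptor Lat measured 4.26, 6.57 and 6.05 FPKM, then 7.55, 0.864 and 1.08 FPKM. Lck was thus 4.05 and 4.17 times as high in lenvatinib 1 as in lenvatinib 2 and 3, and Lat 8.74 and 6.96 times. Themis, which sets signal strength in developing T cells, had the widest range of the general T cell genes, with a level 27.9 and 13.0 times as high in lenvatinib 1 as in the other treated libraries. It rested on 219, 8 and 17 reads there, so those factors are imprecise. Skap1, an adaptor for integrin activation, was 5.87 and 6.30 times as high.

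Surface receptors of T cells followed. Cd2, an adhesion receptor, measured 4.37, 6.66 and 7.25 FPKM in DMSO 1 to 3, against 8.51, 1.10 and 1.83 FPKM in lenvatinib 1 to 3. Cd28, the main costimulatory receptor, was even among controls, at 1.98, 1.97 and 2.17 FPKM, and measured 2.51, 0.365 and 0.408 FPKM with lenvatinib. Cd5 and Cd6, which dampen receptor signals, and Cd27, a receptor of the TNF family, were 7.30 to 18.6 times as high in lenvatinib 1 as in the other treated libraries. None of these genes passed (limma adjusted p = 0.303 to 0.545).

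Some general T cell genes varied far less. Tcf7, the transcription factor TCF1 of naive and memory-like T cells, measured 1.62, 1.74 and 1.81 FPKM in DMSO 1 to 3, against 1.74, 0.847 and 0.779 FPKM in lenvatinib 1 to 3. It had the lowest adjusted p of all members (limma, 0.251; log2 fold change −0.39, SE 0.175), and lenvatinib 1 lay inside the DMSO range. Thy1, which stromal cells and neurons also make, measured 14.0, 21.9 and 21.9 FPKM, then 23.4, 8.34 and 8.33 FPKM. Il7r, the receptor for a survival cytokine on T cells and innate lymphoid cells, measured 1.74, 1.44 and 1.26 FPKM, then 2.01, 1.05 and 1.23 FPKM. Its range across the treated libraries was less than that of any other general T cell gene, and its log2 fold change of −0.04 turned to 0.03 without DMSO 1.

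Among helper and regulatory genes, Cd4 measured 6.45, 9.99 and 9.99 FPKM in DMSO 1 to 3, against 9.11, 4.26 and 4.60 FPKM in lenvatinib 1 to 3 (means 8.81 ± 2.04 and 5.99 ± 2.70, SD, n = 3 per group; log2 fold change −0.53; limma adjusted p = 0.308). Unlike Cd3e, it did not exceed the controls in lenvatinib 1. Cd4 is also made by some macrophages and innate lymphoid cells of the mouse. Its ratio to Cd3e was 1.01 to 1.09 in the DMSO libraries, 0.681 in lenvatinib 1, and 1.99 and 1.75 in lenvatinib 2 and 3. In the libraries where both were low, Cd4 was thus low by a smaller factor than Cd3e.

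Icos, a costimulator of helper T cells, measured 1.08, 1.51 and 1.46 FPKM in DMSO 1 to 3, against 1.73, 0.231 and 0.310 FPKM in lenvatinib 1 to 3. Tigit, an inhibitory receptor of T and NK cells, measured 1.96, 1.75 and 2.02 FPKM, then 2.42, 0.216 and 0.157 FPKM. Ctla4, the inhibitory receptor abundant on regulatory T cells, measured 1.01, 1.82 and 1.59 FPKM, then 2.95, 0.779 and 0.568 FPKM. Tigit was thus 11.2 and 15.4 times as high in lenvatinib 1 as in lenvatinib 2 and 3, and Ctla4 3.78 and 5.19 times. Gata3, a factor of type 2 helper and innate lymphoid cells, measured 0.347 to 0.645 FPKM with DMSO and 0.526, 0.170 and 0.125 FPKM with lenvatinib. The table also lists Gata3os, named for the opposite strand of Gata3, and no strand setting is given, so reads from any overlap cannot be told apart.

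Foxp3, the factor that defines regulatory T cells, measured 0.409, 0.315 and 0.346 FPKM in DMSO 1 to 3, against 0.239, 0.293 and 0.263 FPKM in lenvatinib 1 to 3. It was the only 1 of the 36 members whose groups did not overlap, with every lenvatinib library lower. Among the 27 tested members, which leave out Foxp3, 0 showed this, beside 17.5% of all genes tested, so that count is below the background. Here lenvatinib 1 was its lowest library rather than its highest. The level was under the filter and rested on 36 to 61 reads per library. The exact Poisson 95% interval was 25.2 to 49.8 reads in lenvatinib 1 and 36.3 to 64.8 reads in DMSO 2, which overlap; these intervals cover counting error only. When the filter was lowered to 0.1 FPKM, where 1.59% of 15695 genes and 0 of the 36 members passed, its log2 fold change was −0.10 (SE 0.0520; limma adjusted p = 0.307).

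**Figure D3:**
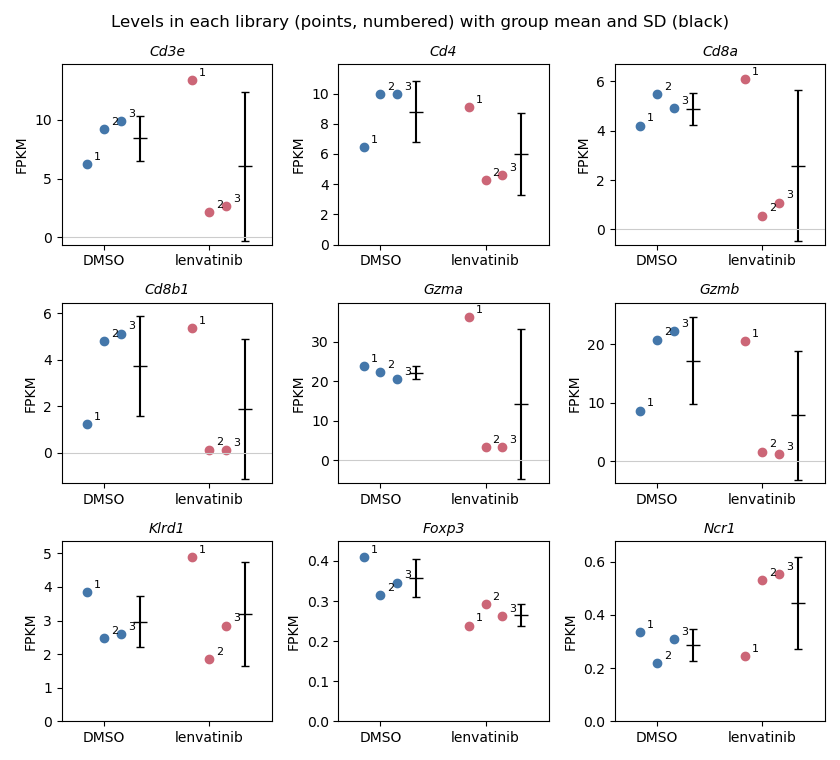
FPKM of 9 members in each library (points, numbered by library; blue DMSO, red lenvatinib) with the group mean and SD in black. For Cd3e, Cd8a and Gzma the treated point numbered 1 lies above all controls and points 2 and 3 below them; Foxp3 and Ncr1 do not follow that order.

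Cytotoxic genes held the widest range of all members, that of Cd8b1. Cd8a, for the CD8 α chain, measured 4.20, 5.47 and 4.91 FPKM in DMSO 1 to 3, against 6.07, 0.564 and 1.09 FPKM in lenvatinib 1 to 3. Cd8b1, for the β chain found on conventional cytotoxic T cells, measured 1.24, 4.79 and 5.13 FPKM, then 5.36, 0.138 and 0.105 FPKM. Lenvatinib 2 and 3 held 8 and 6 reads of Cd8b1, against 304 in lenvatinib 1. The ratio of Cd8b1 to Cd8a was 0.296 in DMSO 1, 0.875 and 1.04 in DMSO 2 and 3, 0.883 in lenvatinib 1, and 0.245 and 0.0961 in lenvatinib 2 and 3. The balance of the chains thus overlapped between groups and was low in DMSO 1 as well. Neither gene passed (limma adjusted p = 0.297 for Cd8a and 0.403 for Cd8b1).

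Granule genes ran in parallel with the CD8 genes. Gzma, granzyme A, was even among controls at 23.7, 22.3 and 20.5 FPKM and measured 36.2, 3.23 and 3.28 FPKM in lenvatinib 1 to 3. Gzmb, granzyme B, measured 8.65, 20.8 and 22.2 FPKM, then 20.6, 1.64 and 1.26 FPKM. On log2(FPKM + 1) their log2 fold changes were −1.40 (SE 0.840) and −1.75 (SE 0.904), and neither passed (limma adjusted p = 0.344 and 0.292). DMSO 1 held less Gzmb than Gzma, with a ratio of 0.365, against 0.936 and 1.08 in the other controls. Prf1, for perforin, measured 0.950 FPKM in lenvatinib 1 and 0.0960 and 0.0581 FPKM in lenvatinib 2 and 3, against 0.523 to 0.738 FPKM with DMSO. Nkg7, a granule membrane protein of killer cells, measured 7.32, 13.1 and 16.3 FPKM, then 20.0, 2.52 and 2.32 FPKM.

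Transcription factors of killer cells behaved like the granule genes or less strongly. Tbx21, for T-bet, was even among controls, at 1.09 to 1.21 FPKM, and measured 2.06, 0.191 and 0.223 FPKM in lenvatinib 1 to 3. Eomes measured 0.253 to 0.383 FPKM with DMSO, then 0.347, 0.104 and 0.133 FPKM, so that lenvatinib 1 was within the control range. Il2rb, the chain shared by the receptors of interleukins 2 and 15, measured 3.86, 5.01 and 5.71 FPKM, then 6.44, 1.96 and 1.75 FPKM. Itgae, the integrin chain of intraepithelial lymphocytes that dendritic cells also carry, measured 4.58, 4.23 and 4.56 FPKM, then 5.31, 2.67 and 2.70 FPKM. Itgae was 1.99 and 1.97 times as high in lenvatinib 1 as in lenvatinib 2 and 3, a narrower range than for the CD8 and granzyme genes.

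The NK receptor members Klrd1, Klrb1c and Ncr1 did not have lenvatinib 2 and 3 as their lowest libraries. Of 8 other tested NK genes given further on, 6 had that order, while the receptor genes Klrb1b and Klra7 did not. Klrd1, for CD94, measured 3.85, 2.47 and 2.59 FPKM in DMSO 1 to 3, against 4.88, 1.85 and 2.85 FPKM in lenvatinib 1 to 3, so lenvatinib 3 lay inside the control range. Its log2 fold change was 0.03 (SE 0.279; limma adjusted p = 0.952) and turned to −0.06 without DMSO 2, −0.03 without DMSO 3 and −0.24 without lenvatinib 1. Klrb1c, for NK1.1, measured 0.383, 0.745 and 0.535 FPKM, then 0.822, 0.443 and 0.274 FPKM; similar genes of its family could share its reads. Ncr1, for the activating receptor NKp46 of NK cells and some innate lymphoid cells, measured 0.335, 0.220 and 0.310 FPKM, then 0.245, 0.532 and 0.554 FPKM. Ncr1 was the only member higher in both lenvatinib 2 and 3 than in every other library. It rested on 13 to 32 reads per library and, admitted at the lower filter, had a log2 fold change of 0.16 (SE 0.0988; limma adjusted p = 0.377). Its ratio to Cd3e was 0.0183 to 0.0538 in DMSO 1 to 3 and lenvatinib 1, and 0.248 and 0.210 in lenvatinib 2 and 3.

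Markers of other cells moved with these genes. Of 10 genes that all leukocytes share, 0 passed in limma (4 at an unadjusted p below 0.05) and all 10 were lowest in lenvatinib 2 and 3. Their summed level was 258 to 376 FPKM with DMSO and 355, 94.0 and 94.2 FPKM in lenvatinib 1 to 3. Ptprc, for CD45, measured 14.5, 17.2 and 17.2 FPKM, then 15.8, 4.94 and 4.88 FPKM. The ratio of Cd3e to Ptprc was 0.428, 0.535 and 0.574 in DMSO 1 to 3, 0.846 in lenvatinib 1, and 0.434 and 0.541 in lenvatinib 2 and 3. Relative to Ptprc, Cd3e in lenvatinib 2 and 3 therefore lay within the control range, and lenvatinib 1 stood above it.

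B cell and macrophage genes differed from T cell genes in lenvatinib 1. The 12 B cell genes summed to 85.1 to 96.9 FPKM with DMSO and 50.9, 11.1 and 12.3 FPKM in lenvatinib 1 to 3. Of 9 tested, 0 passed in limma and 9 had an unadjusted p below 0.05, beside 22% of all genes tested. All 9 were lower with no overlap of the groups, beside 17.5% of all genes tested. Ms4a1, for CD20, measured 7.09, 8.28 and 8.78 FPKM, then 3.85, 0.559 and 0.745 FPKM. The ratio of Cd3e to the B cell gene Cd79a was 0.143, 0.350 and 0.327 in the controls and 0.803, 0.496 and 0.602 in lenvatinib 1 to 3. Every treated library thus had more Cd3e per Cd79a than any control, a ratio chosen with earlier results known and not tested. Of 10 macrophage genes 9 passed as lower, beside 0.934% of all genes tested, and all 10 were lower with no overlap, beside 17.5%. With libraries 2 and 3 of each group averaged 0 passed, where only 0.0255% of all genes tested did. When DMSO 2, DMSO 3, lenvatinib 2 or lenvatinib 3 alone was left out, 3 passed, where 0.382% to 0.493% of all genes tested did. The macrophage genes summed to 723 to 891 FPKM with DMSO and 445, 325 and 322 FPKM with lenvatinib. Plasma cell genes summed to 1910, 621 and 626 FPKM, then 603, 336 and 330 FPKM, and 0 of 8 passed in limma (2 at an unadjusted p below 0.05). Mucosal mast cell genes summed to 210 to 232 FPKM with DMSO and 6.74 to 7.52 FPKM with lenvatinib. Of 5 tested, 4 passed as lower, beside 0.934% of all genes tested, and 2 with the pairs averaged, beside 0.0255%. No gene of these lists was at 0 in all libraries, and the part of other cells in the lymphocyte values was not tested.

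**Figure D4:**
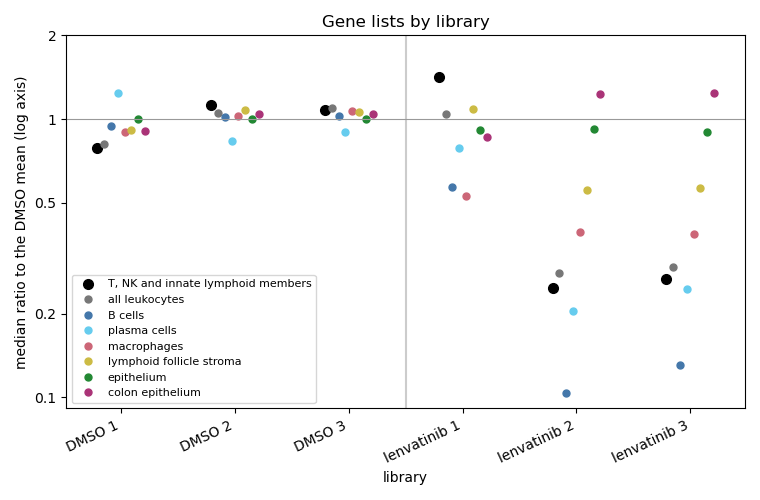
Median ratio to the DMSO mean (log axis) of the 36 members and of 7 marker lists (tested genes only) in each library. In lenvatinib 1 the members (1.42) lie above and B cells (0.571) and macrophages (0.529) below the DMSO mean; in lenvatinib 2 and 3 all the immune lists are below it, while epithelium is at 0.920 and 0.902.

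The 8 general epithelial genes summed to 7220 to 7660 FPKM with DMSO and 6730 to 6820 FPKM with lenvatinib, and 0 of 8 passed in limma (2 at an unadjusted p below 0.05), and 6 of 8 were lower with no overlap, beside 17.5% of all genes tested. Some colon epithelial genes set lenvatinib 2 and 3 apart in the opposite direction to the T cell genes. Slc37a2, a transporter gene, measured 174, 244 and 247 FPKM, then 163, 486 and 483 FPKM, and Aqp8 likewise was highest in lenvatinib 2 and 3. Of the 8 genes of that list 0 passed in limma (2 at an unadjusted p below 0.05). Small intestinal genes were higher with lenvatinib, with 6 of 7 tested passing, where 2.03% of all genes tested passed in either direction. With the pairs averaged 1 passed, where 0.0255% of all genes tested did. The median ratio of the small intestinal genes to the DMSO mean was 22.8 in lenvatinib 1, against 80.1 and 73.9 in lenvatinib 2 and 3. Fabp6 (161, 160 and 148 FPKM in lenvatinib 1 to 3) and Mmp7 (6.37, 3.38 and 4.19 FPKM) were instead highest in lenvatinib 1, while the other tested genes of the list were lower there. Genes of lymphoid follicle stroma summed to 198 to 242 FPKM with DMSO and to 288, 125 and 131 FPKM in lenvatinib 1 to 3. That sum ran in the same order as the T cell genes. All 7 tested genes were lowest in lenvatinib 2 and 3, but only 4 had lenvatinib 1 above every control. In limma 0 of 7 passed (0 at an unadjusted p below 0.05). The part of either tissue in the lymphocyte values was not tested.

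Other genes of the T cell pathways were counted over whole lists, and the genes named from each are mostly those with its smallest p-values. Of 14 tested genes of receptor signalling, 0 passed in limma (5 at an unadjusted p below 0.05) and all 14 were lowest in lenvatinib 2 and 3, with a median log2 fold change of −0.53. Vav1, an exchange factor activated by the receptor, measured 4.93, 4.80 and 4.66 FPKM in DMSO 1 to 3, against 4.31, 1.74 and 1.25 FPKM in lenvatinib 1 to 3. Nfatc2, a factor switched on by calcium, measured 1.69, 1.88 and 1.91 FPKM, then 1.55, 0.715 and 0.712 FPKM. Both had groups that did not overlap, as had 17.5% of all genes tested with lenvatinib lower, since lenvatinib 1 was just below the controls rather than above them.

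Among 11 tested genes of gut homing and residence, 0 passed in limma (2 at an unadjusted p below 0.05) and the median log2 fold change was −0.55. Itgb7, the β7 chain that binds MAdCAM-1, measured 5.46, 5.09 and 5.35 FPKM, then 6.38, 1.56 and 1.48 FPKM. Cd69, a residence and activation marker, measured 1.22, 1.44 and 1.59 FPKM, then 1.05, 0.624 and 0.565 FPKM. Itgb7 thus kept the order of the CD3 genes, while Cd69 was lower in each treated library than in any control. Cd44, an adhesion receptor that other cells also carry, measured 20.5, 23.8 and 24.6 FPKM, then 17.4, 7.44 and 7.69 FPKM. Of 4 tested genes of naive and lymph node homing T cells 0 passed in limma (0 at an unadjusted p below 0.05), and their median log2 fold change was −0.28.

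Of 8 other tested NK receptors and effectors 0 passed in limma (1 at an unadjusted p below 0.05), with a median log2 fold change of −0.34. Lenvatinib 2 and 3 were the lowest libraries for 6 of the 8, an order that 41.4% of all genes tested showed. The exceptions were the receptor genes Klrb1b and Klra7. Klrb1b measured 1.48, 2.04 and 1.72 FPKM, then 1.68, 1.01 and 1.61 FPKM. Klra7 measured 1.11, 1.06 and 0.933 FPKM, then 1.86, 0.889 and 0.938 FPKM. The receptor gene Cd160 measured 1.54, 1.98 and 2.20 FPKM, then 3.62, 0.804 and 0.830 FPKM, and in Cd96 too lenvatinib 1 was highest and lenvatinib 2 and 3 lowest. The chemokine Ccl5, abundant in killer cells, measured 52.8, 47.5 and 50.8 FPKM, then 95.2, 12.5 and 10.8 FPKM, the same order as Gzma. Tyrobp, an adaptor of NK and myeloid receptors, measured 39.6, 48.4 and 47.5 FPKM, then 33.2, 20.1 and 20.3 FPKM (limma adjusted p = 0.0959). Among 6 tested checkpoint genes 0 passed in limma (0 at an unadjusted p below 0.05), and the median log2 fold change was −0.12. Lenvatinib 2 and 3 were the lowest libraries for only 3 of these 6. Lag3, which binds MHC class II, measured 2.14, 3.99 and 4.17 FPKM, then 4.24, 0.920 and 0.966 FPKM (log2 fold change −0.68). Tnfrsf9 went the other way, with a log2 fold change of 0.27. Of 4 tested follicular helper genes 0 passed in limma (1 at an unadjusted p below 0.05), and the median log2 fold change was −0.05. Cxcr5, the follicle-homing receptor that B cells also carry, measured 2.35, 3.25 and 3.82 FPKM, then 1.94, 0.388 and 0.382 FPKM (log2 fold change −1.20). It stood apart from the rest of its list, where Maf and Cd200 had log2 fold changes of −0.07 and −0.03.

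Genes of type 3 and type 2 lymphocytes kept closer to the controls. Of 4 tested genes of Th17 and group 3 innate lymphoid cells 0 passed in limma (1 at an unadjusted p below 0.05), and their median ratio to the DMSO mean was 0.933, 0.928 and 0.922 in lenvatinib 1 to 3. The cytokine gene Il22 did not reach the level for testing and measured 0.113, 0.721 and 0.696 FPKM, then 0.149, 0.238 and 0.0553 FPKM. Il17a and Il17f were at most 0.108 FPKM in any library. Of 2 tested type 2 genes 0 passed in limma (1 at an unadjusted p below 0.05), and Il1rl1, the interleukin-33 receptor shared with mast cells, measured 1.95 to 3.12 FPKM with DMSO and 1.48, 1.48 and 1.60 FPKM with lenvatinib.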

How the data were processed

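RNA from 6 libraries of mouse colon was analysed, 3 with DMSO and 3 with lenvatinib; p-values reflect only how far these libraries spread, which for libraries 2 and 3 of a group may be technical. The authors deposited FPKM values, and per the submitters' processing notes HTSeq and GRCm39 were used; for versions, aligner, annotation and strand, the setting is not given in the sources used here. All 6 columns were used. FPKM values were whole multiples of 1 read, within 0.01 reads, for 23947 of 23951 genes above 0 (99.98%), which gave the reads and the library totals.

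The 11774 genes averaging 1 FPKM or more were tested on log2(FPKM + 1), pseudocount 1, with limma 3.58.1 in R 4.3.3. The fit used a trended, robust prior and two-sided tests, with Benjamini-Hochberg over all genes tested and a threshold of 0.05. It was run on simulated libraries drawn independently. Those held no near-identical pairs, so that run does not cover this feature of the data. The members and gene lists were chosen with earlier results of these data known, so the members get counts and medians, with no test of the list. All 36 members are named, and of each other list those that passed or led by unadjusted p; not all of these are printed. Cd160, Cd96, Klra7, Slc37a2, Btnl6, Il15, Il17a, Il17f, Il22, Ddx3y, Xist, Aqp8, Lct, Gata4 and Apoa4 were named after their values were seen. Alternatives covered pseudocount, filter, scaling, prior, sample weights, voom on recovered reads, replicate numbers as a block, the near-identical pairs, and leaving out each library.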

Additional observations from a re-analysis of the deposited data

How the results depend on the processing

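The count of 239 genes among all tested became 140 with no filter, 7582 with sample weights, 46 with libraries 2 and 3 of each group as a random block and 3 with those libraries averaged. Leaving out 1 library gave 45 to 4479, with 4479 without lenvatinib 1, 270 without DMSO 1, and 50, 45, 58 and 57 without DMSO 2, DMSO 3, lenvatinib 2 and lenvatinib 3. The count of members that passed was 0 in 17 of the 19 alternatives. It was 25, all lower, with sample weights (with 64.4% of genes tested passing), and leaving out 1 library gave 0 to 25, with 25 without lenvatinib 1. With the replicate number as a block, 29 genes and 0 members passed. Deviations of same-numbered libraries from their group means correlated at −0.20, −0.16 and −0.15 across genes. Because libraries 2 and 3 of each group were near-identical, these values largely repeat 1 contrast, that of library 1 with the pair. They cannot decide whether replicate numbers pair the libraries.

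Of 513 values of single members under alternatives, 450 kept direction and side of the threshold, 50 passed there, and 13, of 3 members, turned sign. The log2 fold change of Il7r was 0.064 with quantile normalization and 0.00215 with the pairs averaged, and −0.208 to 0.0698 leaving out 1 library. For Ctla4 it was 0.14 with the pairs averaged, 0.12 with the pairs as a random block, and −0.55 to 0.12 leaving out 1 library. For Klrd1 it was −0.12 with sample weights and −0.24 to 0.28 leaving out 1 library. The cause of these changes was not tested. Depth limits Foxp3, Ncr1, Klrb1c, Themis, Prf1 and, in lenvatinib 2 and 3, Cd8b1, which rested on 6 reads in its shallowest library.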

Other observations

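Btnl1 and Btnl6 of the gut epithelium were not low in the libraries where lymphocyte genes were low. Btnl1, a butyrophilin-like gene of gut epithelium that supports γδ T cells, measured 53.7, 62.2 and 60.9 FPKM in DMSO 1 to 3, against 73.4, 78.9 and 79.4 FPKM in lenvatinib 1 to 3, higher in each treated library than in any control, without passing (limma adjusted p = 0.0684). Its partner Btnl6 measured 72.2, 78.8 and 75.9 FPKM, then 101, 84.1 and 84.9 FPKM. Of 10 tested genes of that list, 0 passed in limma and 6 had an unadjusted p below 0.05, 4 genes being higher and 3 lower with no overlap of the groups, beside 10% and 17.5% of all genes tested.

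The cytokine gene Il15, whose product sustains intraepithelial and NK cells, measured 5.45, 5.31 and 4.72 FPKM with DMSO and 4.68, 7.51 and 7.74 FPKM in lenvatinib 1 to 3, the reverse of the order of the T cell genes. Il2rg, the receptor chain shared by interleukins 2, 7 and 15, measured 16.8, 23.8 and 26.9 FPKM, then 21.3, 7.25 and 6.71 FPKM. Of 11 tested genes of these pathways, 0 passed in limma and 2 had an unadjusted p below 0.05.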
